A study of Mus musculus with 12 samples.

Results

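Isoform usage, the split of a gene's transcripts among its annotated models, was compared between 6 palmitate and 6 vehicle libraries of cultured mouse pancreatic islets. Of 22141 genes in the transcript table, 11524 have 2 or more transcripts in it, and 6952 of these, with 21267 transcripts, were expressed highly enough to be tested. The measure was the share of each transcript, its counts as a percentage of all counts of its gene in a library. Gene totals are given only as context. The 4 conditions held 3 libraries each: palmitate; palmitate with C3a; vehicle; and vehicle with C3a. The islets, in lots of roughly 120 per culture, were those of wild-type (WT) male mice aged 10 to 12 weeks. The comparison pooled over C3a, so 3 of the 6 libraries on either side carried it, and C3a and sequencing batch were terms of the model. The labels give neither the palmitate dose nor the culture time, and they do not say which libraries came from separate mice, so the spread behind every p-value is that between libraries and may be in part technical.

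Palmitate is the saturated fatty acid most used in culture to load islets with lipid, and C3a is a peptide of the complement system, cut from its C3 protein. A gene can give different messages by starting at another promoter, by including or skipping an internal exon, by keeping an intron, or by ending at another polyadenylation site. Such choices can change the protein, as when an exon inside the coding sequence is skipped, or only the untranslated ends. The share of counts is not a share of molecules, because a longer model gives more counts per molecule. Models that share most of their exons are told apart by few reads, and the uncertainty of that assignment is not part of the deposited values.

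Libraries held 22216420 to 50264695 counts. Totals of batch 1 (replicate 1 of every condition) were all below those of batch 2. Beta cell, alpha cell and delta cell markers were abundant in all 12 libraries, and no marker list had a member without counts. The 6 beta cell markers summed to 138170 to 168700 CPM (counts scaled to a common library total) with palmitate, against 158070 to 190510 CPM with vehicle, and were lower with palmitate in 5 of 6 same-numbered pairs. The summed level of 12 endothelial markers was 156 to 266 CPM with palmitate, against 249 to 367 CPM with vehicle, and all 12 were lower with palmitate. Fibroblast and pericyte markers summed to 210 to 1524 CPM with palmitate, where 1 library stood at the top of that range, and to 365 to 727 CPM with vehicle. Duct markers summed to 493 to 647 CPM with palmitate and to 433 to 516 CPM with vehicle, but 3 of the 6 were lower with palmitate. Of the 10 fibroblast and pericyte markers, 4 were lower with palmitate. Acinar markers summed to 2978 to 5205 CPM with palmitate and to 2572.5 to 4580 CPM with vehicle. Macrophage markers summed to 239 to 463 CPM with palmitate and to 287 to 369 CPM with vehicle. The part of these cell types in the changes of share was not tested, and in whole islets a change within a cell type and a change in the number of cells that use a given model cannot be told apart.

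With palmitate the shares of 55 transcripts in 38 genes changed, 29 of them higher and 26 lower (edgeR's quasi-likelihood test on the odds of a transcript within its gene, adjusted p under 0.05). This is 0.259% of the transcripts tested and 0.547% of the genes. Combined per gene by Simes' method, 36 genes passed (0.518%), and 22 passed with the replicate number as a block, a fit that called 45 transcripts, 42 of them among the 55. The difference in mean share was at least 5 percentage points in 36 of the 55 transcripts and at least 10 in 20. All 55 moved in 1 direction in 6 of 6 same-numbered pairs, and in 46 of them the 6 palmitate and the 6 vehicle libraries did not overlap, against 231 of all tested transcripts (1.09%). The 55 were called on these same shares, so neither count is separate support. The count of pairs was not made over all tested transcripts. Transcripts were tested from a mean share of 2% over all 12 libraries, and 5 of the 55, Ckap5-202, Eif1-203, Tmbim6-206, Tusc3-202 and Zfp652-204, averaged under 2% with vehicle and so were tested only through their palmitate libraries. Tmbim6-201 and Tusc3-201, also among the 55, were each the only other tested model of their gene. As a gene needed 2 such transcripts, they too were tested only through palmitate. At an unadjusted p under 0.05 there were 1932 transcripts (9.08%).

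All 55 kept their direction in batch 1 alone and in batch 2 alone. That is no separate support, because all had moved 1 way in 6 of 6 same-numbered pairs, which lie within a batch. In the 8 libraries of batch 2, edgeR called 0 transcripts (1471 at an unadjusted p under 0.05) and limma called 10. Leaving out 1 library at a time left 17 to 38 called transcripts. By library left out, the counts were 24, 19 and 38 for palmitate 1 to 3, 27, 32 and 37 for palmitate with C3a 1 to 3, 18, 24 and 28 for vehicle 1 to 3, and 22, 17 and 31 for vehicle with C3a 1 to 3. An adjusted p depends on all transcripts tested, so calls of several genes can end together at the same value. Without vehicle 1 it was 0.0585 (edgeR) for Banp-204, Lama3-201, Arhgef2-219, Sdccag8-205 and Rrbp1-202 alike. The libraries given below as ending a call need not be particular to that gene. Without the filter on low counts edgeR called 0 of 59325 transcripts (2618 at an unadjusted p under 0.05) and limma 44, and without the batch term edgeR called 10. In 13 genes a transcript was called in all 12 omissions, and these are described first. The 17 transcripts so called are those with the lowest adjusted p in the main fit (0.000792 to 0.00929, edgeR). Being called in all omissions thus repeats that ranking and is no separate support. The omissions kept the transcripts chosen over all 12 libraries. Among these genes, edgeR's diffSpliceDGE (an exon-style test) called none of the 55 in G6pc2, Slc25a20, Agpat3, Banp, Hnrnpf, Sdf4 or Tmem184a.

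**Figure D1:**
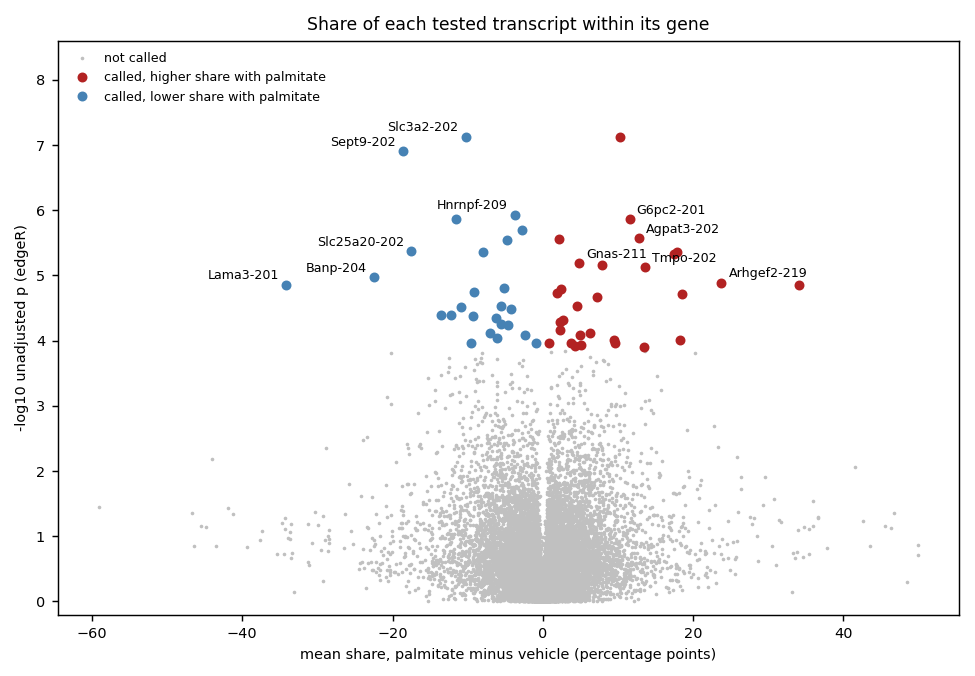
Difference in mean share between palmitate and vehicle libraries (x axis, percentage points) and −log10 of the unadjusted edgeR p (y axis) for the 21267 tested transcripts. The 29 called transcripts with a higher share with palmitate are red and the 26 with a lower share blue, while grey transcripts, some with differences above 20 points, were not called.

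Slc3a2, on chromosome 19, encodes the heavy chain that carries several amino acid transporters to the cell surface and is a target of the integrated stress response, the translational brake set off by amino acid shortage and endoplasmic reticulum stress. Its longer model, Slc3a2-202, starts 9490 bases upstream of Slc3a2-201 and has a coding sequence of 1695 bases, against 1578 in Slc3a2-201. The share of Slc3a2-202 was 6.86% to 10.6% (median 8.85%) with palmitate, against 14.0% to 22.02% (median 19.7%) with vehicle. Every palmitate library lay below every vehicle library. The odds of Slc3a2-202 fell by 1.30 ± 0.09 on the log2 scale (SE; adjusted p = 0.000792, edgeR), the lowest p of all transcripts tested. Slc3a2-201 stood at 332 ± 7.53 CPM with palmitate and 226 ± 9.41 CPM with vehicle (SD, n = 6 each), while Slc3a2-202 stood at 32.0 ± 6.43 CPM with palmitate and 53.3 ± 8.57 CPM with vehicle.

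G6pc2 encodes the islet glucose-6-phosphatase catalytic subunit, which returns glucose-6-phosphate to glucose in the beta cell. Its models differ by 1 coding exon of 116 bases (chr2:69225812-69225927, plus strand, GRCm38), present in G6pc2-201 and skipped in G6pc2-202. The exon's length is not a multiple of 3, and the coding sequence is 1065 bases in G6pc2-201 and 462 in G6pc2-202. The sequences below, from GENCODE M21, show the exon in capitals with 12 bases of its neighbours on either side, and then the junction that skips it, read from 12 bases before it to the stop codon of G6pc2-202, in capitals, which is complete 25 bases after the junction.
G6pc2-201 exon: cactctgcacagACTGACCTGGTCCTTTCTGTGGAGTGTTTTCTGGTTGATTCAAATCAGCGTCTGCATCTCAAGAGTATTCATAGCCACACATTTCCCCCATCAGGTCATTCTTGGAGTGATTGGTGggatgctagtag
G6pc2-202 junction to stop: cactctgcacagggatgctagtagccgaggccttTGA

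The share of G6pc2-201 was 62.4% to 68.4% (median 63.5%) with palmitate, against 49.3% to 55.9% (median 54.0%) with vehicle, without overlap. Its odds rose by 0.69 ± 0.07 on the log2 scale (adjusted p = 0.00487, edgeR). G6pc2-201 stood at 1218 ± 242 CPM with palmitate and 849 ± 89.4 CPM with vehicle, and G6pc2-202 at 660 ± 94.7 CPM with palmitate and 747 ± 18.5 CPM with vehicle. The form with the exon, and with the full coding sequence, was thus the larger part of G6pc2 counts in every palmitate library, whereas in vehicle libraries the forms were nearer to equal.

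Slc25a20, on chromosome 9, encodes the carnitine-acylcarnitine translocase, which brings long-chain acyl groups into mitochondria for oxidation and is a PPAR target. The table holds its coding model, Slc25a20-201, and Slc25a20-202, a model of 2751 bases annotated as a retained intron, which runs from the first exon into the intron after it. The share of Slc25a20-202 was 12.6% to 18.7% (median 15.1%) with palmitate, against 26.5% to 36.5% (median 34.3%) with vehicle. The groups did not overlap, and the odds of Slc25a20-202 fell by 1.45 ± 0.16 on the log2 scale (adjusted p = 0.00713, edgeR). The level of the coding model was 30.1 ± 1.23 CPM with palmitate and 13.4 ± 1.40 CPM with vehicle, while the retained-intron model was at 5.38 ± 0.826 CPM with palmitate and 6.46 ± 0.656 CPM with vehicle.

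Agpat3, on chromosome 10, encodes a lysophospholipid acyltransferase of membrane lipid synthesis. The share of Agpat3-202, which starts 56306 bases downstream of Agpat3-211 and has a shorter 3′ end but the same coding sequence of 1128 bases, was 40.1% to 50.1% (median 43.2%) with palmitate and 28.4% to 35.1% (median 31.4%) with vehicle. Its odds rose by 0.79 ± 0.08 on the log2 scale (adjusted p = 0.00597, edgeR). Agpat3-211, whose share was 16.6% to 25.3% with palmitate and 27.0% to 36.2% with vehicle, did not pass (adjusted p = 0.0823). The share of Agpat3-201 was 19.2% to 23.7% with palmitate and 26.6% to 28.2% with vehicle (adjusted p = 0.0276), a call that ended in each of the 12 omissions.

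**Figure D2:**
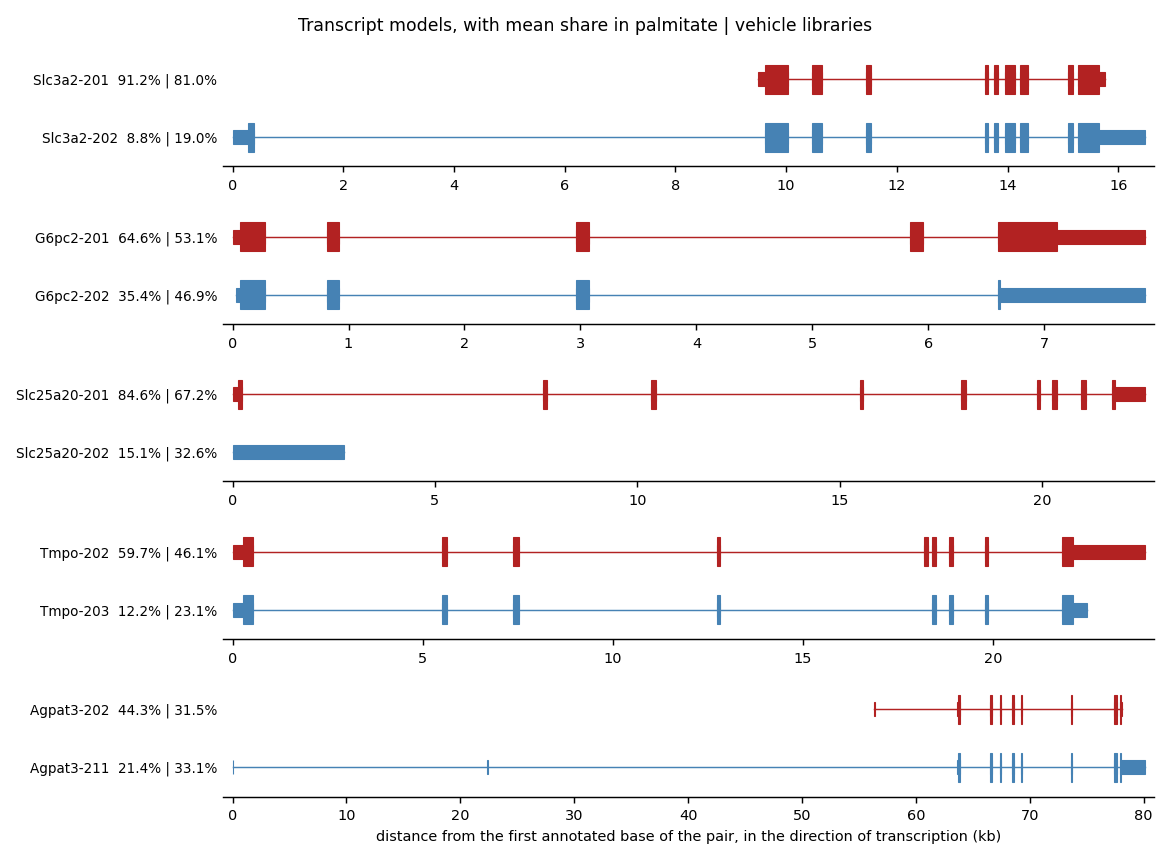
Exon maps of the leading transcript and its partner in 5 genes, drawn to scale from the first annotated base of the pair (x axis, kb); tall boxes are coding, low boxes untranslated or non-coding, and lines introns. The model with the higher share with palmitate is red and on top, and the percentages are mean shares in palmitate and then vehicle libraries (for G6pc2-201, 64.6% and 53.1%).

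Gnas encodes the alpha subunit of the stimulatory G protein that couples receptors such as that for GLP-1 to cAMP, and it lies in an imprinted locus with several promoters. Gnas-211 has the most upstream start of its pair, 45769 bases before Gnas-208, at the place where the transcript of the neuroendocrine secretory protein NESP55 begins, and a coding sequence of 759 bases, against 1182 in Gnas-208. The share of Gnas-211 was 6.78% to 10.7% (median 9.09%) with palmitate and 3.36% to 4.67% (median 4.04%) with vehicle. Its odds rose by 1.21 ± 0.14 on the log2 scale (adjusted p = 0.00906, edgeR), and it stood at 139 ± 17.9 CPM with palmitate and 64.3 ± 7.85 CPM with vehicle. Gnas-208, at 1123 ± 81.4 CPM with palmitate and 1194 ± 83.0 CPM with vehicle, had a share of 70.2% to 73.4% with palmitate and 72.3% to 75.8% with vehicle, which did not pass (adjusted p = 0.212).

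The promoter windows nearest to the starts of these Gnas models differ in CG content, which is why both are shown. That of Gnas-211 holds its start, at 174284320. The window labelled Gnas-208 ends at 174330055, before the start of Gnas-208 at 174330089. The RefSeq promoter windows on the plus strand of GRCm38.p6, from 250 bases before to 50 after a start, are chr2:174284070-174284369 for the start of Gnas-211 and chr2:174329756-174330055 for a RefSeq start 83 bases upstream of Gnas-208, with CG dinucleotides in capitals. There are 16 in the first and 40 in the second, and the median over all 32851 windows of the table is 7.
Gnas-211 promoter: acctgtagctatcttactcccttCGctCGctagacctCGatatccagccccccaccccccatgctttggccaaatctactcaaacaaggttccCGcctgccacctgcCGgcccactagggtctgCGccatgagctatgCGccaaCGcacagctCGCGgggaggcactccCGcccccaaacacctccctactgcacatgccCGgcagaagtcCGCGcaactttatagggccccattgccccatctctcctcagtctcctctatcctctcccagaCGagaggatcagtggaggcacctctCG
Gnas-208 promoter: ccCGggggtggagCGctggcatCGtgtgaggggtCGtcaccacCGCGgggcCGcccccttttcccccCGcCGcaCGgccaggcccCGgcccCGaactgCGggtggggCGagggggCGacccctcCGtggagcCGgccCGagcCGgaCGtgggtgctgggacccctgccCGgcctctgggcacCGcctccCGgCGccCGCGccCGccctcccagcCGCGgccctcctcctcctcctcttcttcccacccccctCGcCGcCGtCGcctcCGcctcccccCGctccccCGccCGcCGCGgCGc

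Tmpo, on chromosome 10, encodes lamina-associated polypeptide 2 in its several forms, and Banp, on chromosome 8, a DNA-binding protein of the nuclear matrix. In both, the pair differs by a coding exon whose length is a multiple of 3, so its loss keeps the reading frame. Both pairs also differ at the 3′ end (Banp at an internal splice site as well). The exon of Tmpo-202 that Tmpo-203 lacks is 120 bases (chr10:91153278-91153397, minus strand), and that of Banp-204 that Banp-202 lacks is 117 bases (chr8:121989955-121990071, plus strand). They are printed with the exon in capitals and 12 bases of its neighbours on either side.
Tmpo-202 exon: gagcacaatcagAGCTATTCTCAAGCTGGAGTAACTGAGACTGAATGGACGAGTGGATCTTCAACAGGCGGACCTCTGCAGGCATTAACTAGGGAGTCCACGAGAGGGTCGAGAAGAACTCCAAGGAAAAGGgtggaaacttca
Banp-204 exon: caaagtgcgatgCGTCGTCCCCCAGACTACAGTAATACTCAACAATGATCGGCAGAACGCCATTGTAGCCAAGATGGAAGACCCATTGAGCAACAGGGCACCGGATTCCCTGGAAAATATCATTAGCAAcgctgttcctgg

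Palmitate libraries had the higher share of the Tmpo model with the exon and the lower share of the Banp model with it. Tmpo-202 held 57.0% to 62.3% (median 59.4%) with palmitate, against 44.6% to 49.4% (median 45.5%) with vehicle, and its odds rose by 0.79 ± 0.09 on the log2 scale (adjusted p = 0.00929, edgeR). Tmpo-203 held 9.56% to 15.2% with palmitate and 17.8% to 25.0% with vehicle (adjusted p = 0.0214), a call that ended in 8 of 12 omissions. Banp-202 held 23.6% to 36.6% (median 31.6%) with palmitate, against 8.58% to 14.2% (median 13.5%) with vehicle, and its odds rose by 1.60 ± 0.17 on the log2 scale (adjusted p = 0.00713, edgeR). Banp-204 held 42.7% to 61.0% with palmitate and 70.8% to 77.1% with vehicle (adjusted p = 0.0126). That call ended without vehicle 1 (adjusted p = 0.0585), without vehicle with C3a 1 (0.0508) and without vehicle with C3a 2 (0.0512). Banp as a whole was at 27.4 ± 1.3 CPM with palmitate and 43.6 ± 1.7 CPM with vehicle, and the model with the exon at 14.2 ± 2.55 CPM with palmitate and 32.2 ± 0.881 CPM with vehicle.

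Sept9, on chromosome 11, encodes a septin, a GTP-binding protein that forms filaments beside actin and microtubules. Sept9-202 starts 66585 bases upstream of Sept9-201. The share of Sept9-202 was 30.9% to 35.1% (median 32.7%) with palmitate, against 46.2% to 53.9% (median 52.3%) with vehicle, and its odds fell by 1.12 ± 0.08 on the log2 scale (adjusted p = 0.000875, edgeR). Sept9-201 held 22.9% to 53.9% (median 47.7%) with palmitate and 8.64% to 32.4% (median 30.5%) with vehicle. Here the groups overlapped, because batch 1 libraries were low on both sides: 22.9% and 33.3% with palmitate, against 10.0% and 8.64% with vehicle. The call of Sept9-201 (log2 odds 1.38 ± 0.18, adjusted p = 0.0159, edgeR) ended without palmitate 1 (0.0536), palmitate 2 (0.0630), vehicle 1 (0.0704), vehicle 2 (0.0522) or vehicle with C3a 2 (0.0642). The whole gene was at 330 ± 49 CPM with palmitate and 180 ± 33 CPM with vehicle.

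**Figure D3:**
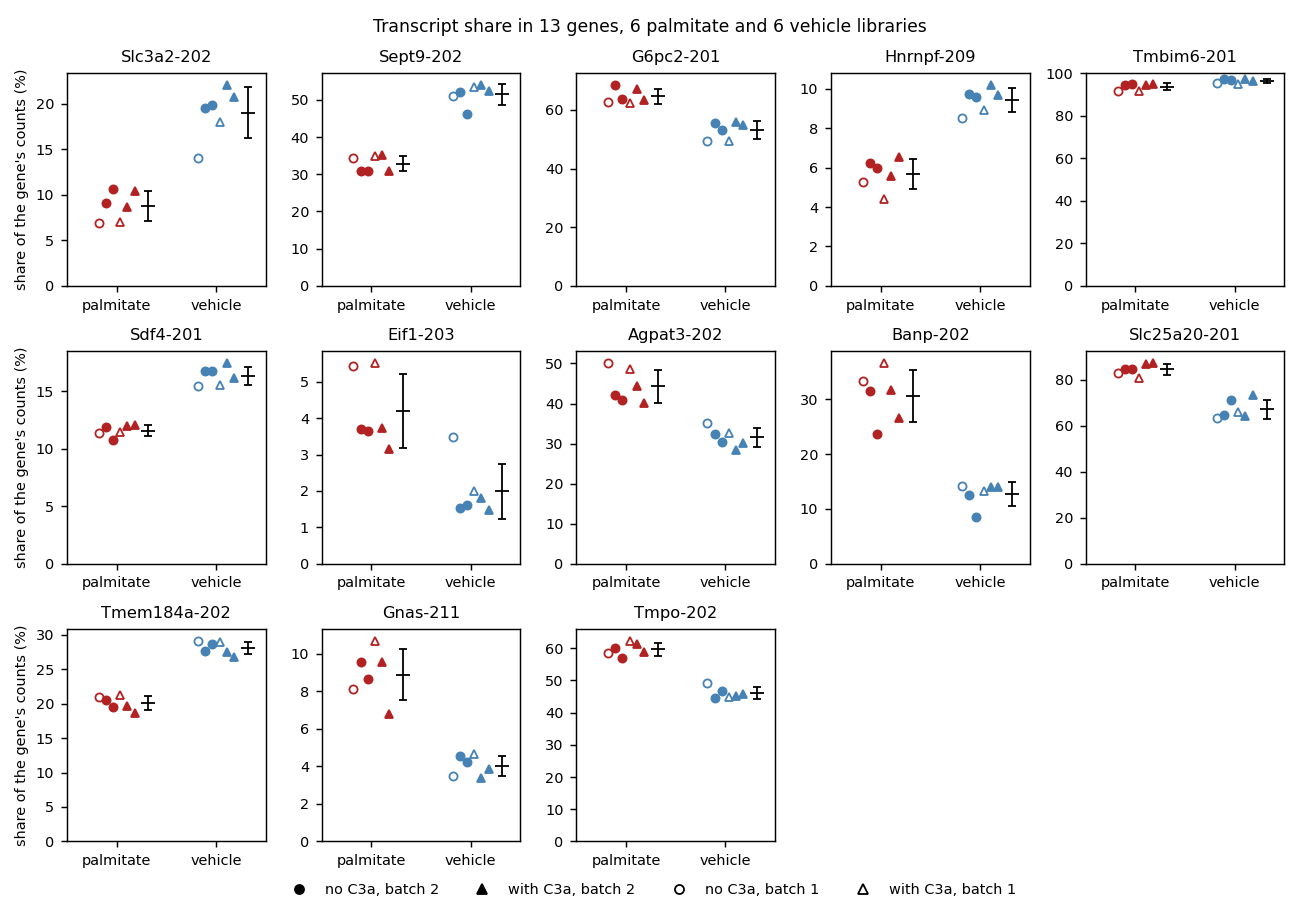
Share of 1 transcript in each of the 13 genes called in all 12 omissions (y axis, percent of the gene's counts from 0), for 6 palmitate libraries on the left in red and 6 vehicle libraries on the right in blue. Circles are libraries without C3a, triangles with C3a, open symbols batch 1, and bars the mean ± SD; the groups overlap only for Eif1-203, where 1 vehicle library stands at 3.49%.

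The other 5 genes called in all omissions changed by less than 10 percentage points. In 4 of them, Hnrnpf, Tmbim6, Sdf4 and Eif1, which were picked out after their values were seen because of that stability, the transcript is a minor one or the partner is. Tmem184a, on chromosome 5, encodes a transmembrane protein. Tmem184a-202 differs from Tmem184a-201 in its first exon, its longer 3′ end and its coding sequence of 1275 bases, against 1347. Tmem184a-202 held 18.6% to 21.2% (median 20.0%) with palmitate and 26.8% to 29.1% (median 28.1%) with vehicle (log2 odds −0.64 ± 0.07, adjusted p = 0.00713, edgeR). Hnrnpf, on chromosome 6, encodes an RNA-binding protein that regulates splicing and polyadenylation. Hnrnpf-209 held 4.41% to 6.53% (median 5.78%) with palmitate and 8.50% to 10.2% (median 9.63%) with vehicle, and it shares its coding sequence of 1245 bases with Hnrnpf-201, which starts 10499 bases upstream (log2 odds of Hnrnpf-209 −0.80 ± 0.07, adjusted p = 0.00487). In both genes every palmitate library was below every vehicle library.

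Tmbim6, on chromosome 15, encodes Bax inhibitor 1, a membrane protein of the endoplasmic reticulum that counters cell death. Tmbim6-206, which has an added exon of 215 bases outside the coding sequence and an end 1415 bases upstream of that of Tmbim6-201, held 3.34% to 4.67% (median 3.92%) with palmitate and 0.829% to 2.08% (median 1.15%) with vehicle. The stable call was that of its partner, Tmbim6-201 (log2 odds −0.87 ± 0.09, adjusted p = 0.00597, edgeR), while that of Tmbim6-206 (1.71 ± 0.24, adjusted p = 0.0285), tested only through its palmitate shares, ended in 10 of 12 omissions. Tmbim6-201 had no other tested model beside it, so it too was tested only through those shares. Sdf4, on chromosome 4, encodes the Golgi calcium-binding protein Cab45. Sdf4-201, which keeps an intron of 146 bases outside the coding sequence and ends 3400 bases further downstream, held 10.7% to 12.0% (median 11.6%) with palmitate and 15.5% to 17.4% (median 16.4%) with vehicle (log2 odds −0.58 ± 0.06, adjusted p = 0.00597). Eif1, on chromosome 11, encodes a factor of start-codon selection in translation. Its non-coding model Eif1-203 held 3.16% to 5.52% (median 3.72%) with palmitate and 1.47% to 3.49% (median 1.71%) with vehicle (log2 odds 1.15 ± 0.12, adjusted p = 0.00597). Its mean was 4.20% with palmitate and 1.99% with vehicle, so it too was tested only through palmitate. The groups overlapped for Eif1-203, with both batch 1 palmitate libraries above 5% and the highest vehicle library also of batch 1.

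**Figure D4:**
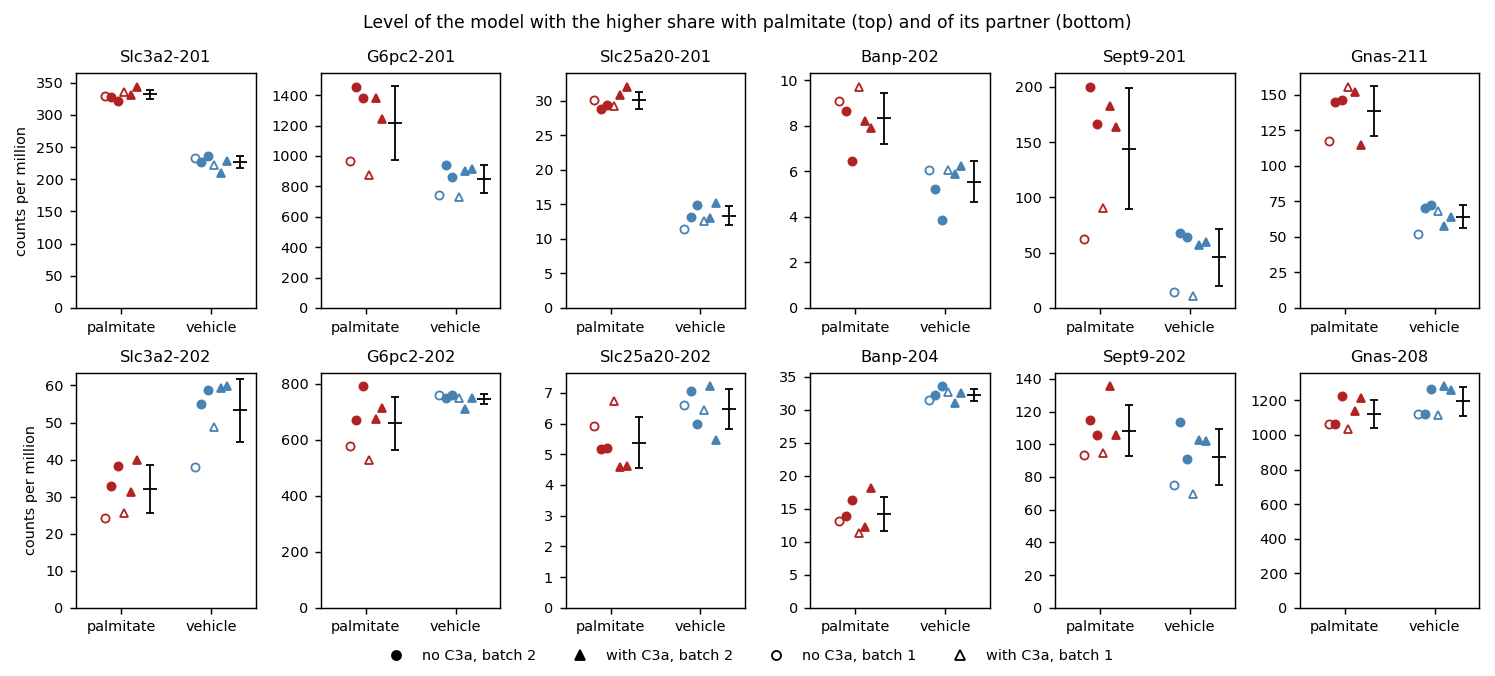
Level in CPM (y axis, from 0, not scaled to length) of the model with the higher share with palmitate (top) and of its partner (bottom) in 6 genes, palmitate on the left in red and vehicle on the right in blue. Circles are libraries without C3a, triangles with C3a, open symbols batch 1, and bars the mean ± SD; for Slc25a20 the coding model is at 30.1 CPM with palmitate and 13.4 CPM with vehicle, while the retained-intron model differs less.

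In 27 of the 38 genes the mean level of the model with the higher share was higher with palmitate and that of its partner lower. In 8 genes the mean level of both models was higher, and in 3 that of both was lower. Genes called for usage were not all genes with higher totals: the mean total was higher with palmitate in 20 of 38. The pairs were chosen for opposite changes in share, so opposite changes in level are in part built in. These counts were not made over all tested genes.

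In the other 25 genes the call ended without at least 1 library. In 6 of them it ended in 4 to 6 of the 12 omissions. Lama3, on chromosome 18, encodes the alpha 3 chain of laminin in the basement membrane, and had the largest difference in share of all called transcripts. The share of Lama3-201, which starts 170380 bases upstream of Lama3-202 and is the longer, was 1.90% to 14.0% (median 3.77%) with palmitate, against 24.6% to 52.9% (median 41.6%) with vehicle. The groups did not overlap (log2 odds −3.84 ± 0.48, adjusted p = 0.0141, edgeR). The gene was at 13.4 ± 6.8 CPM with palmitate and 1.30 ± 0.34 CPM with vehicle, so the vehicle shares rest on few counts. Lama3-201 itself averaged 0.554 CPM with palmitate and 0.491 CPM with vehicle, and Lama3-202 averaged 12.9 CPM with palmitate and 0.813 CPM with vehicle. The call ended without palmitate 1 (adjusted p = 0.0528), palmitate 2 (0.0545), vehicle 1 (0.0585) or vehicle with C3a 2 (0.0552).

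Arhgef2, on chromosome 3, encodes GEF-H1, an activator of RhoA bound to microtubules. Arhgef2-219 starts 4963 bases upstream of Arhgef2-201, and its share was 42.1% to 67.3% (median 49.9%) with palmitate, against 25.4% to 36.7% (median 25.9%) with vehicle (log2 odds 1.48 ± 0.18, adjusted p = 0.0141, edgeR). Its level was 73.7 ± 22.7 CPM with palmitate and 25.1 ± 3.33 CPM with vehicle. The call ended without palmitate 2 (adjusted p = 0.0545), palmitate with C3a 1 (0.0518), vehicle 1 (0.0585), vehicle 2 (0.0515) or vehicle with C3a 2 (0.0505). Rrbp1, on chromosome 2, encodes a ribosome-binding protein of the rough endoplasmic reticulum. Rrbp1-202, which ends 38458 bases upstream of Rrbp1-201 and has a coding sequence of 2103 bases, against 4392, held 7.31% to 9.15% with palmitate and 4.96% to 5.95% with vehicle (log2 odds 0.56 ± 0.07, adjusted p = 0.0149). Without palmitate 2 (0.0545), vehicle 1 (0.0585), vehicle with C3a 1 (0.0508) or vehicle with C3a 2 (0.0552) it was not called.

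Hnrnpa2b1, on chromosome 6, encodes an RNA-binding protein that regulates splicing and was the 1 called gene of a list of splicing regulators. The exon of 36 bases near the start of Hnrnpa2b1-203 (chr6:51467391-51467426, minus strand, in capitals) is skipped in Hnrnpa2b1-201, which also lacks a coding exon of 120 bases and has another last exon.
Hnrnpa2b1-203 exon: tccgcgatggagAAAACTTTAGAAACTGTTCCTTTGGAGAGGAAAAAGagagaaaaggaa
The share of Hnrnpa2b1-201 was 7.07% to 9.91% (median 9.49%) with palmitate and 5.69% to 7.82% (median 7.38%) with vehicle, with overlap (log2 odds 0.39 ± 0.05, adjusted p = 0.0157, edgeR). That of Hnrnpa2b1-203 was 47.8% to 55.3% with palmitate and 48.9% to 56.9% with vehicle (adjusted p = 0.883). The call ended without palmitate 2 (0.0585), vehicle 1 (0.0667), vehicle 2 (0.0560), vehicle with C3a 1 (0.0641), 2 (0.0616) or 3 (0.0569). Sdccag8-205, a non-coding model of a centrosomal protein's gene on chromosome 1, held 1.95% to 5.07% with palmitate and 6.47% to 10.5% with vehicle (adjusted p = 0.0149, edgeR). Its call ended without palmitate 1 (0.0520), palmitate 2 (0.0545), vehicle 1 (0.0585), vehicle 2 (0.0515), vehicle with C3a 1 (0.0605) or vehicle with C3a 2 (0.0639). The remaining gene of these 6 is a predicted one and is counted only.

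In 14 genes the call ended in 9 to 11 of 12 omissions, and in 5 in all 12. Bcl2l1, on chromosome 2, encodes the antiapoptotic protein BCL-XL and was the 1 called gene of an apoptosis list. Bcl2l1-202, whose start lies 1062 bases downstream of that of Bcl2l1-201 and whose coding sequence of 699 bases is the same, held 26.8% to 46.6% (median 40.1%) with palmitate and 15.8% to 36.5% (median 26.9%) with vehicle. The groups overlapped (log2 odds 0.94 ± 0.15, adjusted p = 0.0486, edgeR), the call ended in 11 omissions, and the adjusted p was 0.0859 with the replicate block. Pam, on chromosome 1, encodes the enzyme that amidates peptide hormones in secretory granules. Pam-210, which starts 118366 bases downstream of Pam-201 and lacks a coding exon of 318 bases, held 62.0% to 67.2% with palmitate and 56.9% to 60.7% with vehicle (log2 odds 0.38 ± 0.06, adjusted p = 0.0386, ended in 11 omissions). H13, on chromosome 2, encodes signal peptide peptidase. H13-202 held 66.6% to 69.7% with palmitate and 57.5% to 62.9% with vehicle, without overlap (log2 odds 0.45 ± 0.06, adjusted p = 0.0168, ended in 9 omissions).

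Vps8, Mapre2, Gnb1 and Ckap5 were also among these 14 genes, and the calls of the first 3 ended in 11 omissions. Vps8 encodes a subunit of the endosomal tethering complex CORVET, and its coding model Vps8-204 held 27.9% to 56.1% with palmitate and 13.5% to 32.2% with vehicle (adjusted p = 0.0447, edgeR), while its non-coding model Vps8-208 held 25.4% to 38.6% with palmitate and 42.8% to 49.0% with vehicle (adjusted p = 0.0804). Mapre2, which encodes a microtubule plus-end protein, gave 39.8% to 44.1% for Mapre2-202 with palmitate and 31.9% to 37.9% with vehicle (adjusted p = 0.0447, and 0.0751 with the replicate block). Gnb1 encodes the beta 1 subunit of G proteins, and the incomplete model Gnb1-209 held 6.41% to 10.6% with palmitate and 4.22% to 5.56% with vehicle (adjusted p = 0.0450, and 0.0651 with the replicate block). Other models of Gnb1 differed by batch on both sides. Gnb1-208 held 22.5% to 29.3% in batch 1 libraries and 0% in those of batch 2. Gnb1-203 held 0% to 6.49% in batch 1 and 29.8% to 35.8% in batch 2. Ckap5 encodes a microtubule polymerase. Ckap5-202, which differs from Ckap5-204 in its first exon and has the same coding sequence, held 0.0381% to 15.2% (median 3.37%) with palmitate, while 5 of 6 vehicle libraries list no count for it (adjusted p = 0.0392, and 0.0723 with the replicate block; the call ended in 9 omissions). It was tested only because of its shares with palmitate.

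Of the remaining genes named by size of difference, the following passed with edgeR, but the calls of Loxl2-201, Rasgrf1-203, Zfp652-202 and Smim14-205 ended in all 12 omissions, that of Oxr1-205 in 10 and that of Car10-201 in 11. Oxr1-205 (a gene of resistance to oxidative damage) held 48.5% to 55.1% with palmitate and 61.9% to 68.3% with vehicle (adjusted p = 0.0261). Car10-201 (a carbonic anhydrase-related protein) held 30.6% to 38.3% with palmitate and 44.1% to 49.6% with vehicle (adjusted p = 0.0261). Loxl2-201 (lysyl oxidase-like 2, which crosslinks collagen) held 61.1% to 69.5% with palmitate and 71.6% to 76.5% with vehicle (adjusted p = 0.0450, and 0.0751 with the replicate block). In all 3 the groups did not overlap and the palmitate libraries were lower. Rasgrf1-203 (a Ras exchange factor) held 80.2% to 83.8% with palmitate and 86.3% to 90.5% with vehicle (adjusted p = 0.0437, and 0.0723 with the replicate block). Zfp652-202 (a zinc finger protein) held 79.0% to 82.5% with palmitate and 85.1% to 88.4% with vehicle (adjusted p = 0.0310). Smim14-205 (a small integral membrane protein) held 48.7% to 51.4% with palmitate and 54.4% to 59.7% with vehicle (adjusted p = 0.0386, and 0.0651 with the replicate block). Atp2a3, which encodes the calcium pump SERCA3, is named after its values were seen: Atp2a3-201, with a coding exon of 73 bases that Atp2a3-203 lacks, held 59.5% to 63.7% with palmitate and 63.2% to 67.4% with vehicle, overlapping (adjusted p = 0.0311, ended in 11 omissions).

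The leading transcript and its partner differed in their first exon in 23 of the 38 genes, in their last exon in 6, by an internal exon in 11, and by a retained intron or a coding against a non-coding model in 10. A gene can be in more than 1 class. The partner was the model of the gene with the largest opposite difference in share, called or not. These classes were not counted over all tested genes. Both models were coding in 29 genes, with the same coding sequence in 9 and another in 20, and both had the best annotation support level in 22. The most abundant model changed between groups in 5 called genes, Agpat3, Arhgef2, Vps8, Car10 and Sept9, and in 370 of all tested genes. The model with the higher share with palmitate was the shorter in 26 of 38 genes (68.4%), while over all tested genes the model that gained most was shorter than the one that lost most in 55.8%.

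Shares summed over all genes moved little. Models annotated as retained introns held 1.83% ± 0.28 of counts with palmitate and 1.70% ± 0.16 with vehicle, and models marked for nonsense-mediated decay 1.66% ± 0.08 with palmitate and 1.63% ± 0.02 with vehicle (SD, n = 6 each). Processed transcripts held 1.33% ± 0.12 with palmitate and 1.25% ± 0.09 with vehicle, higher in 6 of 6 pairs. Coding models held 95.1% ± 0.5 with palmitate and 95.4% ± 0.3 with vehicle. None of the 4 classes passed the two-sided exact permutation test, which takes no account of pairs or batch (p = 0.281 to 0.385, adjusted p = 0.385 for each; the smallest p that 924 splits allow is 0.00216). With the replicate block, an exact sign-flip permutation over 6 pairs, processed transcripts had an unadjusted p = 0.03125, the smallest it can give. In 1884 genes with ends at least 500 bases apart, the mean share of the most distal end was 64.2% ± 0.6 with palmitate and 65.0% ± 0.6 with vehicle (exact permutation p = 0.0649), a measure added after the data were seen.

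Of 10 gene lists, 6 held 1 called gene each and 4 held none, beside 0.547% of all tested genes. By the Simes test per gene only 4 lists held a called gene, since Pam (adjusted p = 0.0558) and Bcl2l1 (adjusted p = 0.0625) did not pass it. Among 45 splicing regulators tested 1 was called (Hnrnpa2b1), among 14 genes of the integrated stress response 1 (Slc3a2), among 14 of fatty acid oxidation and PPAR targets 1 (Slc25a20), among 11 of beta cell identity 1 (G6pc2), among 24 of granules, exocytosis and ion channels 1 (Pam), and among 17 of apoptosis 1 (Bcl2l1). There were 0 called among 9 genes of endoplasmic reticulum folding, 13 cAMP and immediate early transcription factors, 16 ribosomal proteins and translation factors and 14 mitochondrial genes. The lists do not hold every gene of their kind: Hnrnpf and Eif1, both called, are not members of the splicing or the translation list. The median over genes of the largest absolute difference in share was 2.71 percentage points for splicing regulators, 2.25 for the stress response, 0.372 for folding, 2.46 for fatty acid oxidation, 1.65 for beta cell identity, 1.60 for granules, 3.17 for apoptosis, 2.34 for the transcription factors, 1.37 for translation and 1.04 for mitochondrial genes, beside 2.80 for all genes tested. An unadjusted Simes p under 0.05 was seen in 9.81% of all genes. The share was 15.6% of splicing regulators, 28.6% of stress-response genes, 11.1% of folding genes, 7.14% of fatty acid oxidation genes, 27.3% of beta cell identity genes, 8.33% of granule genes, 17.6% of apoptosis genes, 0.0% of the transcription factors, 12.5% of translation genes and 14.3% of mitochondrial genes, each from 7 genes or fewer.

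Several genes with known isoforms were looked up whatever they showed. Ddit3, the stress-response factor CHOP, gave 96.6% ± 0.6 for Ddit3-201 with palmitate and 94.7% ± 1.4 with vehicle (adjusted p = 0.395, edgeR). Mlxipl, which encodes the glucose-sensing factor ChREBP, gave 3.60% ± 0.88 for Mlxipl-202 with palmitate and 2.60% ± 0.50 with vehicle (adjusted p = 0.152). Crem, a cAMP-responsive factor whose shorter forms repress, gave 3.06% ± 0.89 for Crem-235 with palmitate and 1.14% ± 0.95 with vehicle (adjusted p = 0.448). These had the lowest p among the tested models of their genes, and none passed.

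The following genes, looked up in the same way, did not pass either. Ins2-205 held 1.97% ± 0.18 of Ins2 counts with palmitate and 2.50% ± 0.97 with vehicle (adjusted p = 0.648, edgeR), and Snap25-201 held 72.1% ± 3.0 with palmitate and 72.6% ± 2.0 with vehicle (0.975). Nnat-202 held 81.3% ± 7.3 with palmitate and 86.5% ± 3.8 with vehicle (0.694). Dusp26-201 held 62.0% ± 29.8 with palmitate and 59.7% ± 33.5 with vehicle (0.895). Atf4, Akap13 and Glp1r had 1 model in the table, and a single model held 96.1% of Xbp1, 98.1% of Mcl1, 99.9% of Pcsk2 and nearly all Insr counts, so no second model of these genes was tested.

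The palmitate effect on shares was also compared between libraries with and without C3a. No transcript was called for that difference (0 of 21267, or 0.0%, with edgeR, 733 at an unadjusted p under 0.05; limma also called 0), nor for C3a itself (0 of 21267 with edgeR, 685 at an unadjusted p under 0.05). All 55 called transcripts had the same direction without C3a and with it, which follows from their 6 of 6 pairs, each within 1 C3a setting. With 3 libraries against 3, edgeR called 0 transcripts within either subset (1102 without C3a and 1280 with C3a at an unadjusted p under 0.05), and limma also called 0, so these subsets describe the direction and do not test it. The log2 odds of Slc3a2-202 were −1.43 with C3a and −1.16 without, those of Gnas-211 1.25 with C3a and 1.18 without, and those of Lama3-201 −3.47 with C3a and −4.20 without.

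**Figure D5:**
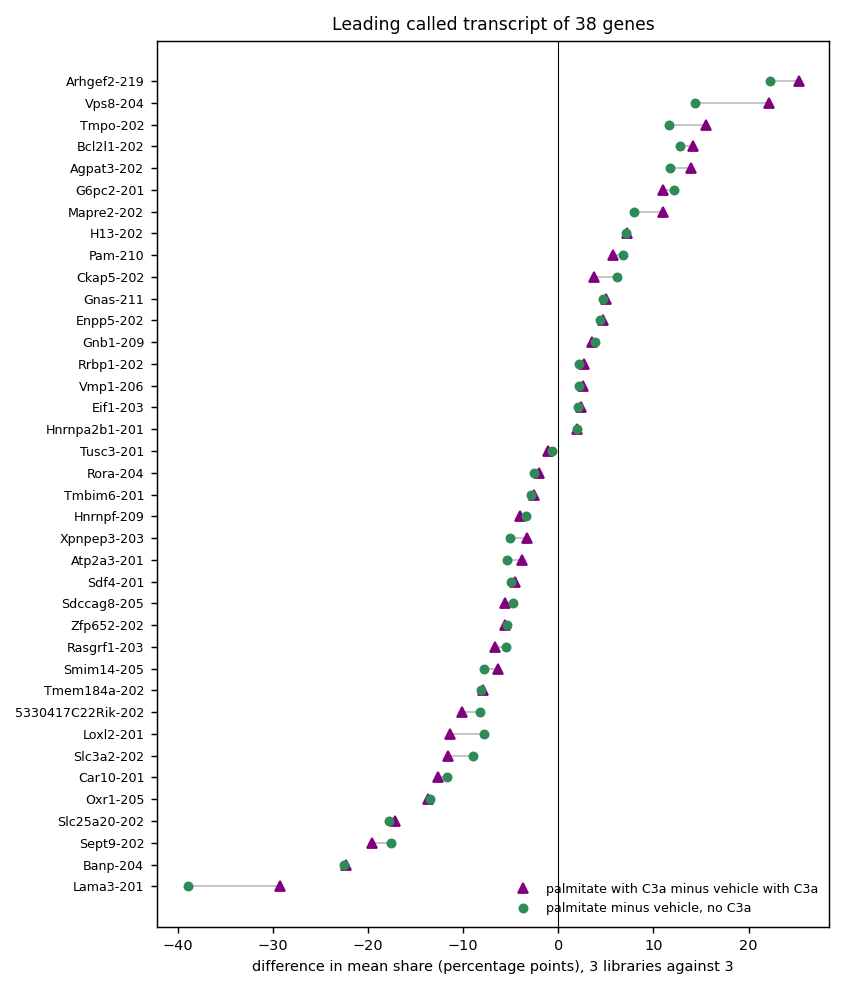
Difference in mean share between palmitate and vehicle libraries (x axis, percentage points) for the leading called transcript of 38 genes, for libraries with C3a (triangles) and without C3a (circles), 3 libraries against 3 in each. In every gene both symbols lie on the same side of 0.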

How the data were processed

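The authors deposited 1 table of estimated counts per mouse transcript for 12 libraries, as whole numbers and not normalized; the submitters' processing notes list kallisto, DESeq2 and the GRCm38 build without saying what each was used for. Annotation release and strand setting are not stated in the labels, so overlapping genes and near-identical models are uncertain. Libraries were messenger RNA made with a strand-marking kit, per the labels' protocols.

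Of 71524 transcripts, 69942 matched GENCODE M21. Tested transcripts averaged at least 10 counts and 2% of their gene over all 12 libraries, in genes with at least 50 counts and 2 such transcripts. For each, the transcript's counts and those of the rest of its gene were fitted with edgeR 4.0.16 in R 4.3.3 (robust quasi-likelihood, 1 term per library, with palmitate, C3a and batch acting on the odds, 8 residual degrees of freedom). P-values were Benjamini-Hochberg adjusted over all tested transcripts. CPM are counts scaled to library totals. Every pair of libraries differed by far more than sampling noise, so each was counted as 1 replicate. The fit was tested on simulated counts.

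Over all 18 pairs of libraries with the same number, deviations from the group means had correlations of at least 0.207. These also carry the difference between batches, so they do not test pairing. The labels tie number 1 to batch 1. The column names give 1 date-like ending to every number 2 and another to every number 3, so the numbers were taken to pair libraries. In batch 2 alone the 12 correlations were 0.0036 to 0.0924, none reaching 0.1. There each group has 2 libraries with mirrored deviations, so numbers 2 and 3 give the same values. The comparison, gene lists, fixed cases and rules were chosen with earlier results of these data known. Named were the 24 genes with the largest differences among called genes of at least 200 counts moving 1 way in 6 pairs, up to 4 per structural class and per list, and the fixed cases, of which 1 is not reported here. Alternatives were limma 3.58.1, edgeR's exon-style test, DESeq2 1.42.0, other filters and terms, subsets and omissions.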

Additional observations from a re-analysis of the deposited data

Results flagged for a closer look

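Of 86 groups of 6 libraries examined (the leading transcript of 38 called genes, and 5 sums over the library, with palmitate and with vehicle), 6 held a library set apart from the others, where chance gives about 1 in 20 (5%). The share of Ckap5-202 stood at 15.2% in palmitate 3, with the next palmitate library at 5.28%, and at 0.0201% in vehicle with C3a 2, where the other vehicle libraries list no count. The share of Rrbp1-202 was highest in palmitate with C3a 1, at 9.15%, the next being 7.95%. Arhgef2-219 was highest among vehicle libraries in vehicle 1, at 36.7%, the next being 29.6%. Eif1-203 was also highest in vehicle 1, at 3.49%, the next being 2.01%. Mapre2-202 was highest in vehicle 2, at 37.9%, the next being 33.7%. Apart from the palmitate library for Ckap5-202 and that for Rrbp1-202, the libraries set apart lay nearer to the palmitate group than the rest of theirs.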

How the results depend on the processing

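Beside 55 transcripts, and 36 genes by the Simes method, the counts were 101 transcripts and 63 genes with limma (55 of 55 shared), 95 and 63 with limma and a prior count of 2, 33 transcripts with edgeR's diffSpliceDGE (8 shared), 533 and 308 with DESeq2, 97 and 55 with a minimum share of 10%, 10 and 13 without the batch term, 85 transcripts without the C3a term, and 45 transcripts and 22 genes with the replicate block. No filter on low counts, batch 2 alone, and libraries without or with C3a alone each gave 0 and 0 with edgeR (2618, 1471, 1102 and 1280 transcripts at an unadjusted p under 0.05). Added after the data were seen, limma called 44 transcripts without the filter, 10 in 7 genes in batch 2, and 0 in either C3a subset. Omissions gave 17 to 38 transcripts and 12 to 20 genes. The direction of the 55 reversed under 0 alternatives, all of which used these same libraries or part of them. The replicate block ended 13 of their calls. The difference between C3a settings gave 0 to 2 calls over the omissions, with 1 without vehicle 1 and 2 without vehicle with C3a 1. The share of nonsense-mediated decay models, palmitate minus vehicle, was −0.00892 percentage points in batch 2. Processed transcripts, at 0.0717 points, gave p = 0.03125 with the replicate block (exact sign-flip permutation over 6 pairs, the smallest it can give). The distal-end difference ran from −0.899 to −0.517 points over the omissions, with −0.899 without palmitate 3 (exact permutation p = 0.0238) and −0.862 without vehicle 3 (0.0346). The causes were not tested; smaller sets of libraries have fewer residual degrees of freedom. Depth limits shares of low genes, and the spread between libraries limits small changes.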
